A study of Homo sapiens with 4 samples.

Results

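The 10 genes described here encode chaperones and proteases that fold and clear proteins inside mitochondria: HSPD1, HSPE1, HSPA9, TRAP1, GRPEL1, DNAJA3, LONP1, CLPP, CLPX and YME1L1. They were chosen by symbol as effectors of the mitochondrial unfolded protein response, and all 10 were found among the 25192 genes of the deposited tables. The cells were A549, a human lung adenocarcinoma line, transduced either with control empty virus (EV, which expressed only GFP) or with the FCN3 virus, a retroviral vector carrying GFP and the V5-tagged coding sequence of FCN3, a secreted lectin. RNA was taken 48 h after infection from 2 EV and 2 FCN3 samples. The labels number the samples 1 and 2 in each group without saying what the numbers mark. Nothing says that they were separate cultures, so the p-values cover no spread beyond these samples. The tests also pool spread over genes, so a p-value does not rest on the spread of its own gene alone.

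Most mitochondrial proteins are encoded in the nucleus, made in the cytosol and imported unfolded. In the matrix, HSPA9 pulls them in and hands them to the HSPD1-HSPE1 chaperonin, while LONP1 and the CLPX-CLPP complex degrade those that are misfolded. In many systems, proteotoxic stress inside the organelle raises the transcripts of these chaperones and proteases, a program known as the mitochondrial unfolded protein response. It is named apart from the unfolded protein response of the endoplasmic reticulum (ER).

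The libraries held between 16353554 and 35733735 expected counts, with the deeper library numbered 1 in each group. FCN3 had 1 and 0 expected counts in the EV libraries and made up 2.06% and 2.23% of the counts with the FCN3 virus. The epithelial markers EPCAM, KRT8, KRT18, KRT19 and CDH1 were all above 1 TPM (a share of transcripts corrected for length) in every library, although EPCAM reached only 3.65 TPM. Of the other cell type markers, 9 of 10 stayed at or below 0.19 TPM, PTPRC among them. CD68, which is listed as an immune marker and encodes a lysosomal protein, was at 33.9 and 35.7 TPM in EV and at 61.9 and 49.8 TPM with the FCN3 virus. Its part in the results was not tested.

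The 10 genes did not move as one group. LONP1 and HSPA9 were higher with the FCN3 virus by 1.43-fold and 1.24-fold, whereas HSPE1, HSPD1 and TRAP1 were lower, at 0.747, 0.852 and 0.863 times the EV level. The other 5 genes differed by less than 10% in either direction. In edgeR's quasi-likelihood test without the replicate number, 0 of the 10 genes passed a false discovery rate (FDR) of 0.01, against 0.965% of all 14099 genes tested. At an unadjusted p under 0.05 the test called 3 of the 10, beside 25.1% of all genes, and DESeq2 called 2 of the 10 at an FDR of 0.01, beside 7.86% of all genes. With the replicate number as a block, edgeR called 5 of the 10, 2 higher and 3 lower, where 36.2% of all genes were called (19.1% higher and 17.1% lower). DESeq2 with the block also called 5 of the 10, beside 16.2% of all genes. Both shares of the 10 genes were above those of the whole table, and with so few genes the difference was not tested. The block leaves few degrees of freedom, so its p-values rest largely on spread pooled over genes. In edgeR with the block, the SE of the log2 fold change was 0.049 for HSPD1 and 0.048 for HSPA9. It was 0.050 for HSPE1, TRAP1 and YME1L1.

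**Figure D1:**
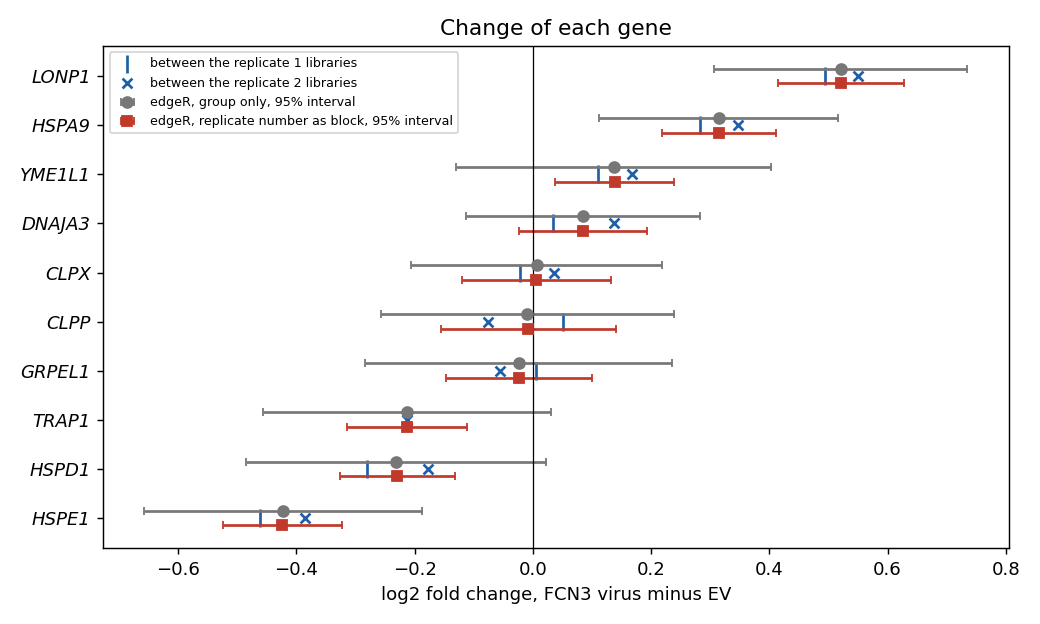
log2 fold change of each gene, FCN3 virus minus EV, from edgeR without (grey) and with (red) the replicate number as a block, with 95% intervals, and the difference between the libraries of each replicate number (blue). LONP1 and HSPA9 lie to the right of 0 and HSPE1, HSPD1 and TRAP1 to the left in both same-numbered comparisons, and the remaining genes lie near 0.

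LONP1 encodes the ATP-dependent serine protease of the matrix, which degrades oxidized and misfolded proteins. Its TMM-normalized level, in counts scaled to library size (CPM), was 131 and 121 in EV replicates 1 and 2, and 184 and 177 CPM with the FCN3 virus. Both FCN3 libraries lay well above both EV libraries. This gave a log2 fold change of 0.52 ± 0.09 (SE; adjusted p = 0.030 from edgeR), and LONP1 passed an FDR of 0.05, as 7.19% of all genes did, but not 0.01. The adjusted p was 0.066 without EV replicate 2, 0.15 without FCN3 replicate 1 and 0.093 without FCN3 replicate 2, so that the call at 0.05 was lost. With the block it was 5.6e-12, and in DESeq2 without the block it was 0.0013. Between same-numbered libraries the log2 difference was 0.49 and 0.55. Of all genes tested, 19.7% had a larger absolute fold change than LONP1.

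HSPA9, also called mortalin, is the HSP70 of the matrix and drives the import motor. It was at 757 and 729 CPM in EV and at 921 and 927 CPM with the FCN3 virus, again with no overlap between the groups. This gave a log2 fold change of 0.31 ± 0.08 (SE; adjusted p = 0.082 from edgeR, and 2.6e-07 with the block), and the differences within replicate numbers were 0.28 and 0.35.

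The cofactors that work on HSPA9 had smaller differences, with intervals that include 0. DNAJA3, the J-domain protein that stimulates its ATPase, was at 136 and 129 CPM in EV and at 139 and 142 CPM with the FCN3 virus. GRPEL1, its nucleotide exchange factor, was at 68.7 and 63.5 CPM against 69.0 and 61.1 CPM. Their log2 fold changes were 0.08 and -0.02, with 95% intervals from -0.11 to 0.28 for DNAJA3 and from -0.28 to 0.24 for GRPEL1 without the block. With it they ran from -0.02 to 0.19 and from -0.15 to 0.10. Whether they differed from HSPA9 in their change was not tested. DNAJA3 was marginally higher in both FCN3 libraries than in both EV libraries, and GRPEL1 overlapped. The direction of DNAJA3 turned when TPM were used instead of counts.

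HSPE1 encodes HSP10, the lid of the chaperonin chamber, and showed the largest decrease of the 10 genes. Its level was 302 and 322 CPM in EV and 219.6 and 246 CPM with the FCN3 virus. Both FCN3 libraries were below both EV libraries, and replicate 2 was above replicate 1 in each group. This gave a log2 fold change of -0.42 ± 0.09 (SE; adjusted p = 0.060 from edgeR without the block, 4.9e-10 with it, and 0.0067 in DESeq2 without it). The read-through gene HSPE1-MOB4 shares the HSPE1 sequence, and its expected count was between 0.404% and 0.936% of that of HSPE1. With both summed, the log2 fold change stayed at -0.42. GENCODE lists 26 pseudogenes of HSPE1 and 18 of HSPD1, none of which had a row in the tables, so reads shared with them cannot be separated from these values.

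HSPD1 encodes HSP60, the barrel of the same chaperonin. It was at 1536 and 1360.1 CPM in EV and at 1265 and 1202 CPM with the FCN3 virus. The groups did not overlap, but the gap between them was smaller than the difference between the EV libraries. This gave a log2 fold change of -0.23 ± 0.10 (SE; adjusted p = 0.23 from edgeR, and 9.7e-05 with the block), at -0.28 and -0.18 within replicate numbers. Without EV replicate 1 the log2 fold change was -0.13 (adjusted p = 0.62 from edgeR).

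TRAP1 is the HSP90 of mitochondria. Its values were 278 and 251 CPM in EV and 239.9 and 216 CPM with the FCN3 virus, and in both groups replicate 1 was higher than replicate 2. This gave a log2 fold change of -0.21 ± 0.10 (SE; adjusted p = 0.25 from edgeR, and 4.2e-04 with the block). It was -0.21 within both replicate numbers, but -0.13 without EV replicate 1 and -0.14 without FCN3 replicate 2.

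CLPP and CLPX, the peptidase and the unfoldase of the second matrix protease, gave no detectable difference. CLPP was at 33.8 and 35.6 CPM in EV and at 35.1 and 33.8 CPM with the FCN3 virus. CLPX was at 59.9 and 59.1 CPM against 59.0 and 60.6 CPM. In both genes the groups overlapped in CPM. On the log2 scale, the 95% interval of the difference ran from -0.26 to 0.24 for CLPP and from -0.21 to 0.22 for CLPX without the block. With it the intervals were -0.16 to 0.14 and -0.12 to 0.13.

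YME1L1 is the AAA protease of the inner membrane that faces the intermembrane space. It was at 273 and 237 CPM in EV and at 294 and 266 CPM with the FCN3 virus. The groups overlapped because replicate 1 was higher than replicate 2 in each, while the difference within replicate numbers was 0.11 and 0.17 on the log2 scale. The log2 fold change was 0.14, with an adjusted p of 0.48 from edgeR and of 0.020 with the block, which does not pass 0.01. It was 0.032 without EV replicate 2, 0.061 without FCN3 replicate 1, 0.21 without FCN3 replicate 2 and 0.25 without EV replicate 1.

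In 6 of the 10 genes, 3 higher and 3 lower, both FCN3 libraries lay on one side of both EV libraries, where 54.5% of all genes did so (28.0% higher and 26.5% lower). The median log2 fold change of the 10 genes was -0.0016, against 0.02 over all genes tested, and their median absolute value was 0.17, against 0.22.

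Levels were compared between genes in TPM. HSPD1 was the most abundant of the 10 transcripts in EV at 1228 ± 113 TPM (SD, n = 2), followed by HSPE1 (727 ± 28.7), HSPA9 (406 ± 13.6), TRAP1 (227 ± 17.7) and YME1L1 (115 ± 12.1). DNAJA3 at 96.2 ± 3.97 TPM and GRPEL1 at 90.4 ± 5.52 TPM overlapped and could not be ordered. LONP1 (78.0 ± 5.07 TPM), CLPP (64.6 ± 1.99 TPM) and CLPX (49.8 ± 0.792 TPM) followed without overlap. With the FCN3 virus, HSPE1 at 505 ± 46.7 TPM and HSPA9 at 471 ± 7.38 TPM overlapped, and LONP1 at 104 ± 2.05 TPM stood above DNAJA3 and GRPEL1. Summed over the 10 genes, the level was 3082 ± 141 TPM in EV and 2637 ± 6.83 TPM with the FCN3 virus (SD, n = 2 in each group). The sum follows its most abundant genes, HSPD1 (974 ± 23.9 TPM with the FCN3 virus) and HSPE1. HSPA9, LONP1 and YME1L1 had higher means with the FCN3 virus, so the sum does not describe each gene. FCN3 transcripts took 41618 and 44730 TPM in the latter, which lowers the TPM of every other gene. With FCN3 left out of the scale the summed levels were 3182 and 2982 TPM in EV and 2747 and 2766 TPM with the FCN3 virus.

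**Figure D2:**
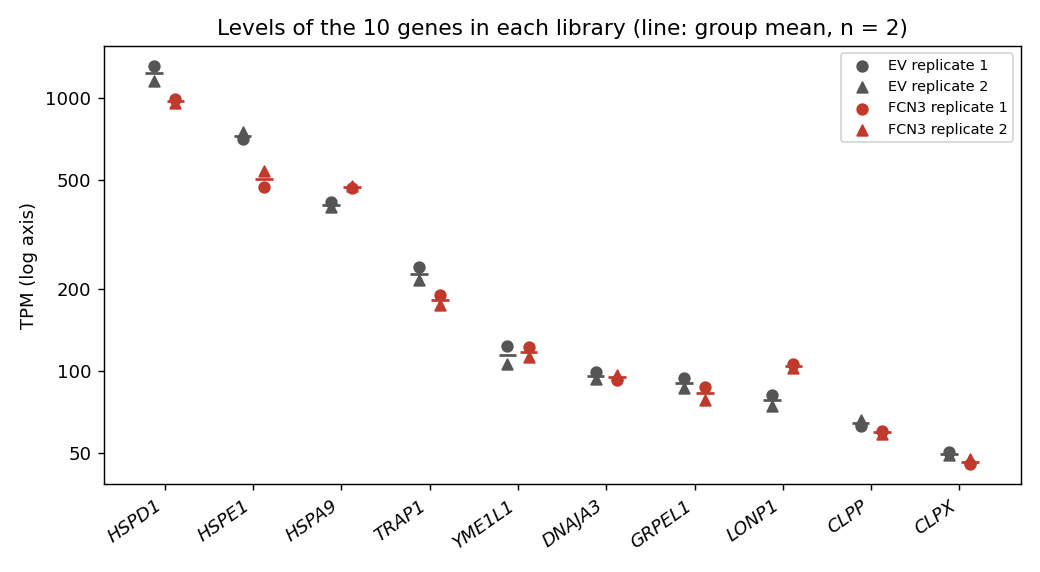
Level of each gene in TPM (log axis) in the 4 libraries, with EV in grey, the FCN3 virus in red, circles for replicate 1, triangles for replicate 2 and lines for group means. HSPD1, HSPE1 and TRAP1 sit lower and HSPA9 and LONP1 higher with the FCN3 virus, and LONP1 moves past DNAJA3 and GRPEL1. CLPP and CLPX also sit lower without overlap on this scale, whereas their groups overlapped in CPM. FCN3 transcripts are part of the TPM scale, and their share in the lower CLPP and CLPX values was not tested.

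Ratios of TPM between genes whose products work together were computed in each library. The ratio of HSPA9 to GRPEL1 was 4.41 and 4.59 in EV and 5.34 and 6.07 with the FCN3 virus. That of HSPA9 to DNAJA3 was 4.20 and 4.25 in EV and 5.00 and 4.92 with the FCN3 virus. In neither did the groups overlap. Both ratios have HSPA9 as the numerator, and its own groups did not overlap. Of all genes taken singly, 54.5% did not overlap in CPM, and no such share was computed for ratios. The ratio of HSPD1 to HSPE1 was 1.85 and 1.54 against 2.10 and 1.78, higher with the FCN3 virus within each replicate number but overlapping between the groups. CLPX to CLPP was 0.797 and 0.746 against 0.757 and 0.807, with opposite directions in the same-numbered libraries. For one ratio, 2 libraries in each group allow no two-sided p below 0.333 in an exact permutation test.

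**Figure D3:**
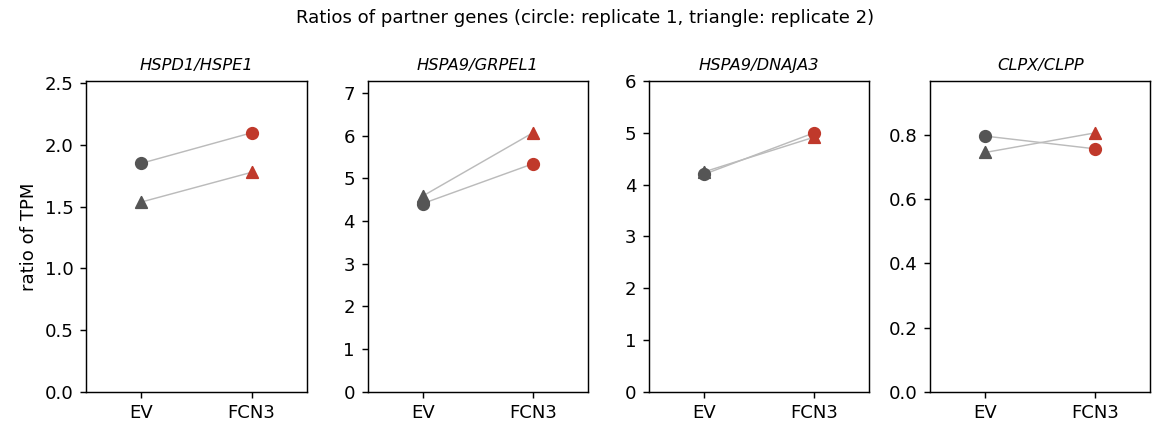
Ratio of TPM of 4 gene pairs in each library, with EV in grey, the FCN3 virus in red and grey lines joining libraries of the same replicate number. Both HSPA9 ratios are higher in each FCN3 library than in either EV library, and the CLPX to CLPP lines cross.

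The genes of the decrease and of the increase were also examined at their start sites. In GENCODE on GRCh37, HSPD1 is on chromosome 2 (198351308 to 198381461, minus strand) and HSPE1 beside it (198364864 to 198368173, plus strand), so that they are read in opposite directions and overlap. YME1L1 overlaps MASTL (log2 fold change -0.40) and LONP1 overlaps RPL36 (0.15). TRAP1 overlaps DNASE1 (-0.29, at low levels of 2.12 CPM in EV and 1.77 CPM with the FCN3 virus), and HSPD1 also overlaps MOB4 (-0.16). The library kit kept the strand, but whether counting used it is not given in the sources used here. HSPA9 is on chromosome 5 (137889445 to 137911364, minus strand), LONP1 on chromosome 19 (5691845 to 5720583, minus strand) and TRAP1 on chromosome 16 (3701640 to 3767554, minus strand). The upstream RefSeq start site of HSPD1 and that of HSPE1 are 105 bases apart. RefSeq promoter windows on GRCh38.p14, from 250 bases before to 50 after the start, were found for 7 of the 10 genes in 9 windows, and each window matched GRCh37 at 1 place. CLPP, GRPEL1 and YME1L1 had no window.

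Letters of known elements were searched on both strands of these windows. The E-box core CACGTG, read by MYC and USF factors, was searched after the sequences had been seen. It was present in 4 of the 9 windows, against 7.26% of all 35116 windows, and the HSPD1 and HSPE1 windows share the same copy. The 4 genes with it are LONP1 and HSPA9, which were higher, and HSPE1 and HSPD1, which were lower. The stretches below are shown because they carry the same letters in genes whose differences had opposite signs. They are written 5′ to 3′ along the strand of the gene, with the E-box in capitals, at chr19:5720189-5720218 and chr19:5720352-5720381 for LONP1, chr5:137911092-137911121 for HSPA9 and chr2:198365069-198365098 for HSPE1 and HSPD1 (GRCh37).
LONP1, 49 bases before the start: cgcgccgggcgtCACGTGcgtttcgcggcg
LONP1, 212 bases before the start: ctcacagccttcCACGTGaccggaaaaggc
HSPA9, 19 bases before the start: cgcccctcacccCACGTGgttggaggtttc
HSPE1, 22 bases before the start: gggtgattttttCACGTGtcgccagggccg
In GENCODE the HSPA9 and HSPE1 copies and the more distant LONP1 copy fall in exons of some transcripts of these genes, and the nearer LONP1 copy does not.

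Among the elements of stress responses, the heat shock element, alternating GAA and TTC blocks, was found in the downstream HSPD1 window alone (chr2:198364783-198364812, minus strand, shown with the element in capitals), beside 0.49% of all windows. A match on the opposite strand overlaps it. In GENCODE the element falls in an exon of HSPD1, and it lies downstream of the upstream HSPD1 start site.
HSPD1, 240 bases before the start: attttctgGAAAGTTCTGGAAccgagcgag
The letters TGCAAT, the core read by the ER stress factor CHOP with its C/EBP partners, were present in the same HSPD1 window, on the opposite strand, and in 8.21% of all windows. TGATGNAA, the core of the amino acid response element read by ATF4, and the ER stress response element were in none of the 9 windows, beside 3.62% and 0.0769% of all windows. The palindromic NRF1 element was in 1 LONP1 window and in 1.24% of all. These matches describe the letters of short windows only.

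Relatives of the 10 genes were measured in other compartments. Of 7 ER counterparts, 6 were called higher without the block, beside 0.965% of all genes called in either direction. All 7 were called higher with it, beside 19.1% of all genes, and their median log2 fold change was 2.56. HSPA5, the HSP70 of the ER, was at 749 CPM in EV and at 6842 CPM with the FCN3 virus. Its log2 fold change was 3.19 (adjusted p = 9.9e-04 from edgeR), beside the 0.31 of HSPA9. HSP90B1, the HSP90 of the ER, had a log2 fold change of 2.44 (adjusted p = 0.0012 from edgeR), beside the -0.21 of TRAP1. HYOU1 (2.88), the exchange factor of HSPA5, and the J-domain genes DNAJB9 (3.15), DNAJC3 (2.56) and DNAJB11 (2.08) were called too. SIL1, another exchange factor, had 0.96 and an adjusted p of 0.012 from edgeR.

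The 15 cytosolic counterparts had a median log2 fold change of -0.19, on the side of HSPD1, HSPE1 and TRAP1. Without the block edgeR called 0 of them (4 had an unadjusted p under 0.05, and DESeq2 called 1), and with it 12, all lower. Of all genes, 25.1% had an unadjusted p under 0.05, DESeq2 called 7.86%, and 17.1% were called lower with the block. HSP90AA1 (-0.54, adjusted p = 0.059 from edgeR) and HSPH1 (-0.41, 0.079) were the lowest, while HSPA8 and HSP90AB1 were at -0.21 and -0.19. DNAJB1 was at -0.08 and DNAJA2 at 0.02. The 8 listed subunits of the cytosolic chaperonin, TCP1 and the CCT genes, lay between -0.13 and -0.34. Differences between the lists were not tested.

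The other genes of mitochondrial protein quality control lay on both sides of 0, with more of them lower than higher. Lower were 7 of 9 chaperones, 11 of 15 proteases, 18 of 26 import genes and 13 of 16 biogenesis genes. Of all 14099 genes, 6783 were lower. The median log2 fold change was -0.09 for the chaperones and -0.11 for the proteases. Whether these lists differ from all genes was not tested. The share called with the block in the lists of chaperones, proteases, import and biogenesis was near or below the 36.2% of all genes. At an unadjusted p under 0.05, 25.1% of all genes passed, and DESeq2 called 7.86%. Among 9 further chaperones and scaffolds, edgeR called 0 without the block (2 had an unadjusted p under 0.05, and DESeq2 called 1) and 3 with it (33.3%), 1 higher and 2 lower. GRPEL2, the second exchange factor of HSPA9, was at 22.3 CPM in EV and 34.4 CPM for the FCN3 virus (0.61 on the log2 scale, adjusted p = 0.056 from edgeR, and 4.6e-09 with the block), while GRPEL1 was at -0.02. PPIF, the cyclophilin of the permeability transition pore, was at 194 and 128 CPM (-0.60, adjusted p = 0.057 from edgeR). PHB, a prohibitin, had -0.19 and HSCB, a J-domain protein of iron-sulfur cluster assembly, 0.19.
Among 15 further proteases, edgeR called 0 without the block (4 had an unadjusted p under 0.05, and DESeq2 called 1) and 4 with it (26.7%), 2 higher and 2 lower. METAP1D, a methionine aminopeptidase, had a log2 fold change of 0.87 (adjusted p = 0.054 from edgeR) at low levels of 4.01 and 7.45 CPM. OMA1, the stress-activated inner membrane protease, had 0.41 (adjusted p = 0.17 from edgeR, and 0.0027 with the block). LACTB, a filament-forming serine protease-like protein, was at 73.5 and 47.9 CPM (-0.62). ATP23, listed under its older symbol XRCC6BP1, had -0.29 and was not called with the block (adjusted p = 0.13 from edgeR with the block). The genes called lower with the block were LACTB and PMPCA, the latter at -0.29 (adjusted p = 4.0e-05 from edgeR with the block).

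Of 26 tested genes of protein import, edgeR called 0 without the block (8 had an unadjusted p under 0.05, and DESeq2 called 2) and 9 with it (34.6%, beside 36.2% of all genes), 3 higher and 6 lower, and the median log2 fold change was -0.07. TIMM17A, a channel subunit of the inner membrane translocase, was at 93.7 CPM in EV and 161 CPM with the FCN3 virus (0.78, adjusted p = 0.031 from edgeR). TIMM44, which tethers HSPA9 to the translocase, had 0.37 (adjusted p = 0.11 from edgeR, and 1.6e-05 with the block). TIMM13, a chaperone of the intermembrane space, was at 59.1 and 41.3 CPM (-0.52, adjusted p = 0.040 from edgeR), and TOMM40, the pore of the outer membrane, at 321 and 249.6 CPM (-0.36).
Of 16 tested genes of mitochondrial DNA and biogenesis, edgeR called 0 without the block (4 had an unadjusted p under 0.05, and DESeq2 called 1) and 6 with it (37.5%, beside 36.2% of all genes), 1 higher and 5 lower, with a median of -0.11. POLRMT, the mitochondrial RNA polymerase, had -0.49 (adjusted p = 0.035 from edgeR) and NRF1 -0.30, against 0.44 for TFB1M and 0.07 for ESRRA.

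Among 9 genes described as acting upstream of these chaperones and proteases, DDIT3, which encodes CHOP, was the 1 called without the block, with a mean of 7.40 CPM for EV and 149 CPM for the FCN3 virus (4.35 on the log2 scale, adjusted p = 4.0e-04 from edgeR). ATF4 was at 285 and 435 CPM (0.61, adjusted p = 0.026 from edgeR). ATF5, a leucine zipper factor tied to the mitochondrial response, was at 58.4 and 40.5 CPM (-0.53, adjusted p = 0.15 from edgeR, and 5.7e-09 with the block). Without the block 0.965% of all genes were called. At an unadjusted p under 0.05, 5 of the 9 passed, beside 25.1% of all genes, and DESeq2 called 2, beside 7.86%. With the block 5 of the 9 passed (55.6%), 3 higher and 2 lower, beside 36.2% of all genes.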

How the data were processed

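Per the labels and the study's methods, the authors made stranded paired-end libraries, aligned the reads to hg19 with STAR 2.6.1d and counted RefSeq transcripts with RSEM. The deposited values per gene are expected counts, TPM and FPKM, with lengths. FPKM was not used, and the annotation release is not given in the sources used here. The authors' expected counts, 16353554 to 35733735 per library, were rounded and tested in edgeR 4.0.16 (R 4.3.3; TMM, filterByExpr, quasi-likelihood test, group as the only term, FDR 0.01) over 14099 of 25192 genes. All 10 genes passed the filter. CPM are TMM-normalized. The deposited TPM served for levels between genes. Scripts were tested on simulated data. The alternatives were the replicate number as a block, DESeq2 1.42.0, limma 3.58.1 (voom, or log2(TPM + 1) and log2(TPM + 0.1)), other scalings and filters, unrounded counts, a length offset, an FDR of 0.05 and each library left out. DESeq2 with the block and the E-box search were added after the data were seen. Genes and lists were chosen with earlier results of these data known. Beyond the 10 genes, the text names the genes called in each list or otherwise the 2 highest and 2 lowest, and a few fixed counterparts and regulators. SIL1, PMPCA, the cytosolic chaperonin subunits and the overlapping genes were named after their values were seen.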

Additional observations from a re-analysis of the deposited data

How the results depend on the processing

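With the replicate number as a block, edgeR called 5103 of all genes, against 136 without it, 5 of the 10 genes against 0, and 46 genes of the other lists against 7. The numbers come from the labels alone. The replicate differences of the 2 groups correlated at r = 0.807 over 8309 genes, a hint from the data and not from the design, which has 2 numbers. In each group the deeper library is numbered 1, so a shared batch and library depth cannot be told apart by this correlation. DESeq2 called 1047 genes, 2 of the 10 and 15 of the other lists, an FDR of 0.05 gave 1014, 1 and 12, and DESeq2 with the block 2212, 5 and 31. Of all calls, 76.5% were higher without the block, 52.7% with it and 56.4% in DESeq2. With each library left out the counts were 92 to 267 for all genes (267 without EV replicate 2), 0 to 0 for the 10 genes and 7 to 7 for the other lists.

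HSPD1, HSPE1, HSPA9, TRAP1 and LONP1 kept their direction in 81 of 81 alternative fits. All fits reuse the same libraries, and the groups of these genes did not overlap. Leaving out a library could therefore hardly turn their direction, and the count is no independent support. Without 1 library HSPD1 ranged from -0.32 to -0.13 and TRAP1 from -0.29 to -0.13. YME1L1 ranged from 0.032 to 0.25. Genes near 0 changed sign. Leaving out each library gave -0.039 to 0.019 for CLPP, -0.012 to 0.026 for CLPX and -0.12 to 0.060 for GRPEL1. CLPX was at -0.0058 in DESeq2, -0.0063 in DESeq2 with the block, -0.0017 with RLE scaling, -0.094 on log2(TPM + 1) and -0.096 on log2(TPM + 0.1), and DNAJA3 at -0.0198 and -0.0200 on the same TPM scales. CPM in place of TPM put 8 of the 10 genes at another place in the order, since CPM is not per length. The cause of the other changes was not tested. The sum of HSPD1 with its pseudogenes was not run because none has a row. With 2 libraries a group, small changes of CLPP, CLPX, GRPEL1 and DNAJA3 were not detectable.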
